A study of Mus musculus with 24 samples.

Results

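The hair and follicle keratin clusters were examined for open chromatin across the 12 ATAC-seq peak lists of a study that induced the transcription factor SOX9 in epidermal stem cells (EpdSCs) of mouse skin and in cultured keratinocytes. ATAC-seq marks chromatin that a transposase can enter. Members were the regions covered by a peak of any list within the gene body, or 5 kb on either side, of a protein-coding gene named Krt and a number, without 9 keratins of the basal, suprabasal or stressed epidermis and its follicle (Krt1, Krt5, Krt6a, Krt6b, Krt10, Krt14, Krt15, Krt16 and Krt17). Peaks of the 12 lists that overlapped by at least 1 bp were merged into 134385 regions. Of these, 111 were keratin regions, 48 around 22 genes of the type I cluster on chromosome 11 and 63 around 22 genes of the type II cluster on chromosome 15. They came from 552 of the 708357 deposited peaks. Krt18 is a type I gene that lies at the end of the chromosome 15 cluster and is counted there.

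The skin groups were male CD1 mice of the genotype K14rtTA; TRE-myc-Sox9, in which the Krt14 promoter drives a doxycycline (DOX)-dependent activator of a myc-tagged Sox9 transgene. EpdSCs were sorted as cells negative for CD31, CD45, CD117, CD140a and CD34 and high for CD49f and Ly6A, from mice aged P21 (D0, before DOX), P28 (W1), P35 (W2) and P63 (W6), and from skin grafted onto immunocompromised hosts at W12. D0 carried the same transgenes as the later groups. The W12 graft differs from the other times in more than the time on DOX, so graft and time cannot be told apart. Each replicate pooled several mice. The culture groups were keratinocytes from male CD1 back skin: noDOX and WT-SOX9 (K14rtTA; TRE-myc-Sox9), ΔHMG-SOX9 without the DNA-binding HMG domain, ΔTA-SOX9 without the transactivation domain, AFOS (a dominant negative FOS that blocks AP1 from DNA), SOX9+AFOS, and SOX9+ARID1a, which adds a subunit of the SWI/SNF remodelling complex. DOX was given at 1 µg/ml, for 3 days in WT-SOX9 and both mutant arms, as far as the labels state it. All 6 DOX arms were compared with the 1 noDOX list, and no uninduced list of the other constructs was at hand.

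Keratins build the intermediate filaments of epithelia, and each filament pairs a type I with a type II chain. Hair keratins fill the cortex and cuticle of the hair shaft, other pairs build the inner root sheath and the companion layer that guide the shaft, and a further set belongs to simple epithelia such as ducts and gut lining. In each cluster the genes stand side by side, so 22 of the 111 regions lay in the windows of 2 or more member genes. Regions are named here by the member gene with the nearest transcription start and numbered along the chromosome, as in Krt31 r2.

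The study merged the 2 replicates of each group before calling peaks. Every group is therefore 1 list, no value below has a replicate check, and no test between conditions could be run. Values are the authors' normalized peak score, which begins at 3 in all 12 lists, and shares with 95% Wilson intervals that cover counting error only. Neighbouring regions are not independent, so these intervals are too narrow. The lists held 49458 to 75956 peaks, with in vivo lists longest at W6 (75956) and W12 (71503). Read depth was not recoverable from peak lists. A peak inside exon 3 of Sox9, present at D0 (score 13.5), W2, W6 and W12, was absent in the list labelled W1, so classes over the skin lists that use W1 are also given without it, and the D0 to W1 and W1 to W2 values, scores at W1 included, have no such counterpart. In the list labelled AFOS, 3 peaks were confined to Arid1a exons past the first, against 4 in SOX9+AFOS, 4 in SOX9+ARID1a and at most 1 in each of the other 9 lists. Peak names of these 3 lists also carry a tag that the other culture lists lack. Starts of basal epidermal genes (Krt5, Krt14, Itga6, Itgb4, Trp63, Ly6a) had a peak for 5 of 6 genes in each of the 12 lists. The immune (3 genes) and endothelial (2 genes) marker starts had none in any list, melanocyte starts had 1 or 2 of 5, fibroblast starts 0 or 1 of 3 and Merkel cell starts 0 to 2 of 4. Starts of follicle stem cell and outer root sheath genes (Sox9, Lhx2, Lgr5, Cd34, Nfatc1, Tcf7l1) had a peak for 4, 4, 3, 6 and 6 of 6 genes from D0 to W12 and for 3 or 4 in culture, with Lgr5 and Cd34 present in skin at W6 and W12 alone. Hair matrix starts (Lef1, Hoxc13, Foxn1, Msx2) had 2, 2, 1, 2 and 1 of 4 in skin and 1 or 2 in culture. Suprabasal starts (Krt1, Krt10, Lor, Ivl) had 2 of 4 in each of the 12 lists, and the Ivl start scored 6.51, 5.80, 26.4, 19.4 and 12.1 from D0 to W12. The part of these in the keratin values was not tested. In pooled cells, fewer open cells and less open chromatin per cell cannot be told apart.

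Most keratin regions lay away from gene starts. By the position of the region's centre, 63 were intergenic, 34 intronic, 9 in a coding exon and 5 in a noncoding exon, and 10 of the 111 overlapped a start of a member gene. Their median width was 554 bp against 543 bp over all regions. Of the 44 member genes, 40 had at least 1 region and 4 had none (Krt9, a keratin of palm and sole, Krt2 of the upper epidermis, Krt73 of the inner root sheath and Krt76 of oral epithelium). Krt80, a type II keratin found in many epithelia, had the most regions, 8 in its window.

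The sequences below are 200 bases around the centres of the regions on which the results turn, on the plus strand of GRCm38 from RefSeq. The first 5 had a SOX match, ACAATAG or ACAATGG on either strand, which alone is printed in capitals. Krt90 r4 is 193 bp wide, so its run passes both of its ends. Such a match is a description of letters and not a binding site.
Krt42 r4, chr11:100270004-100270203, upstream of the Krt42 start: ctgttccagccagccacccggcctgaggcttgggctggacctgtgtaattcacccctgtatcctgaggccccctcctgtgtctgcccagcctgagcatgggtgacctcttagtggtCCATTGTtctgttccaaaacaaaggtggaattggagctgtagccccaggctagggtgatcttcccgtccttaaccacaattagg
Krt23 r2, chr11:99489067-99489266, in an intron of Krt23: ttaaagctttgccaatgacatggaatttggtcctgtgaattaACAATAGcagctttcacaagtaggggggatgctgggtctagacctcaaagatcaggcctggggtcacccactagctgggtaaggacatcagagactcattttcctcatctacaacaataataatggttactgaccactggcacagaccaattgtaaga
Krt82 r3, chr15:101547024-101547223, in an intron of Krt82: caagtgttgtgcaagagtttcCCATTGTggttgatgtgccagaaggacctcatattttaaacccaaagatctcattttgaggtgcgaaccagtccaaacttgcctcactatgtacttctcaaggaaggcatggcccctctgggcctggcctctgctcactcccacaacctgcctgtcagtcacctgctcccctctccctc
Krt87 r1, chr15:101426440-101426639, in an intron of Krt7: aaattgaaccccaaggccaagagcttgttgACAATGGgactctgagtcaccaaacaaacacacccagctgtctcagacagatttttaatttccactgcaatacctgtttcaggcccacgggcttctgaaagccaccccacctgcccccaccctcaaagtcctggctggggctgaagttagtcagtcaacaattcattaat
Krt90 r4, chr15:101566570-101566769, in an intron of Krt75: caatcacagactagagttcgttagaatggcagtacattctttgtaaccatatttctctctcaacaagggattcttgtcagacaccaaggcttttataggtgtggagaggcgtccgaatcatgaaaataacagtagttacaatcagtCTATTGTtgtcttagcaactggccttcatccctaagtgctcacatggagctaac

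The next 3 held a GATA match, AGATAA on either strand, in capitals. They were chosen because their scores or presence differed among both the skin and the culture lists.
Krt31 r2, chr11:100047298-100047497, in an intron of Krt31: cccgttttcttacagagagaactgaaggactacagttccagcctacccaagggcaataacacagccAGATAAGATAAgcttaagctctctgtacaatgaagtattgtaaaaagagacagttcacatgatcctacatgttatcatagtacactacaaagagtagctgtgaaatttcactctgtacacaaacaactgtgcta
Krt75 r1, chr15:101575684-101575883, upstream of Krt75: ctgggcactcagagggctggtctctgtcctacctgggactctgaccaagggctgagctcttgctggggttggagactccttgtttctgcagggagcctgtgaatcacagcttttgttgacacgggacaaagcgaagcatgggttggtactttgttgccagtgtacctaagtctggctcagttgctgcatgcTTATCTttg
Krt80 r4, chr15:101354235-101354434, in an intron of Krt80: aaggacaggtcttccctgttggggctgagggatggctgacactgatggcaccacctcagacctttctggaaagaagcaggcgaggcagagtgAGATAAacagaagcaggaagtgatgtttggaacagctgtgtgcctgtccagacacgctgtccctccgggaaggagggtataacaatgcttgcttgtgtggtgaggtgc

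The last sequence is the strongest region that was absent at D0 and present at W6, and its capitals mark a RUNX match, TGTGGT on either strand.
Krt79 r3, chr15:101940554-101940753, upstream of the Krt79 start: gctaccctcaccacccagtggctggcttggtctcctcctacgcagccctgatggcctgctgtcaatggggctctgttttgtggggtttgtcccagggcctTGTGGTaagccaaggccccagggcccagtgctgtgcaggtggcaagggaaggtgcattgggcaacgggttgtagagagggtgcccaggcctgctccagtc

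Within the central 200 bp, a SOX match was found in 6 of 111 keratin regions (5.41%, interval 2.5 to 11.3%), against 6.07% of all 134343 regions that could be scanned. The sixth, Krt36 r2, lay in a noncoding exon of the hair shaft gene Krt36 and is not printed. RUNX matches were found in 20 keratin regions (18%, against 16.5% of all), AP1 matches (TGACTCA or TGAGTCA) in 17 (15.3% against 19.4%), GATA matches in 12 (10.8% against 10.7%) and TCF/LEF matches (CTTTGAT or CTTTGAA) in 6 (5.41% against 7.02%). The CTCF consensus was found in 1 (0.901% against 1.87%). Matches of different motifs were counted separately where they overlapped. Of the 6 regions with a SOX match, 5 had a peak in culture alone, and Krt87 r1 had one at all 5 skin times and in no culture list. Over all keratin regions 33.3% were open in culture alone, and over all regions 29.1%. Krt23 r2 and Krt90 r4 had a peak in WT-SOX9 alone, with scores of 12.5 and 3.52, and Krt36 r2 in SOX9+AFOS alone, with 4.96. The SOX match was in 2 of 19 keratin regions gained in WT-SOX9 (10.5%, against 16.6% of all regions gained there). It was in 1 of 8 in ΔHMG-SOX9 (12.5% against 4.78%), 0 of 6 in ΔTA-SOX9 (against 4.32%) and 1 of 17 in AFOS (5.88% against 5.30%). In SOX9+AFOS it was in 2 of 25 (8% against 9.25%) and in SOX9+ARID1a in 1 of 23 (4.35% against 11.3%). Of the regions gained in culture, the AP1 match was in 0 of 19 in WT-SOX9 (against 11.9% of all regions gained there) and in 0 of 25 in SOX9+AFOS (against 4.47%). It was in 1 of 8 in ΔHMG-SOX9 (12.5% against 24.8%), 2 of 6 in ΔTA-SOX9 (33.3% against 32.8%), 2 of 17 in AFOS (11.8% against 30%) and 2 of 23 in SOX9+ARID1a (8.70% against 18.8%). Over full regions it was in 2 of 19 in WT-SOX9 (10.5% against 22.5%) and 1 of 25 in SOX9+AFOS (4% against 11.1%). These groupings were seen after the values and carry no test.

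Openness at keratin starts was rare. A peak covered an annotated start of 9 of the 44 member genes in at least 1 list, and of 1 gene, Krt80, in all 12. In single lists 1 to 5 of 44 keratin genes had a start peak (2.27 to 11.4%), whereas 44.8 to 56.3% of the 21951 protein-coding genes did. At D0 the starts of Krt77 (6.06) and Krt80 (19.8) had a peak. W1 held these and Krt25, an inner root sheath gene, at a score of 15.4. The region there, Krt25 r1, had a peak at all 5 skin times (4.47, 15.4, 5.36, 3.58 and 4.85 from D0 to W12) and in 5 culture lists. Only the W1 peak reached the start used here. At W2, W6 and W12 the start of Krt80 alone had a peak, with scores of 18.6, 7.40 and 8.61.

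In culture the start of Krt8, a keratin of simple epithelia, had a peak in all 7 lists and in none of the skin lists. Its score was 5.61 in noDOX, 24.8 in WT-SOX9, 16 in ΔHMG-SOX9, 17.5 in ΔTA-SOX9, 30.2 in AFOS, 17.6 in SOX9+AFOS and 9.89 in SOX9+ARID1a. All 6 DOX arms were above noDOX. The start of Krt18, the usual partner of Krt8, had a peak in WT-SOX9 (4.49), ΔHMG-SOX9 (4.09), ΔTA-SOX9 (7.0) and AFOS (9.87) and in no other list. The start of Krt7, another simple epithelial keratin, had a peak in AFOS (7.84), SOX9+AFOS (39.3) and SOX9+ARID1a (7.34), the 3 lists that share the peak name tag, and the region around it, Krt7 r1, also had a peak in the untagged WT-SOX9 list (3.84), which did not reach the start used here. The start of Krt42, a type I gene close to Krt17 in sequence, had one in WT-SOX9 (30.1) and SOX9+AFOS (26.3). Those of Krt23 (4.30, SOX9+AFOS) and Krt78 (3.65 in ΔHMG-SOX9 and 3.97 in SOX9+ARID1a) were weak.

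**Figure D1:**
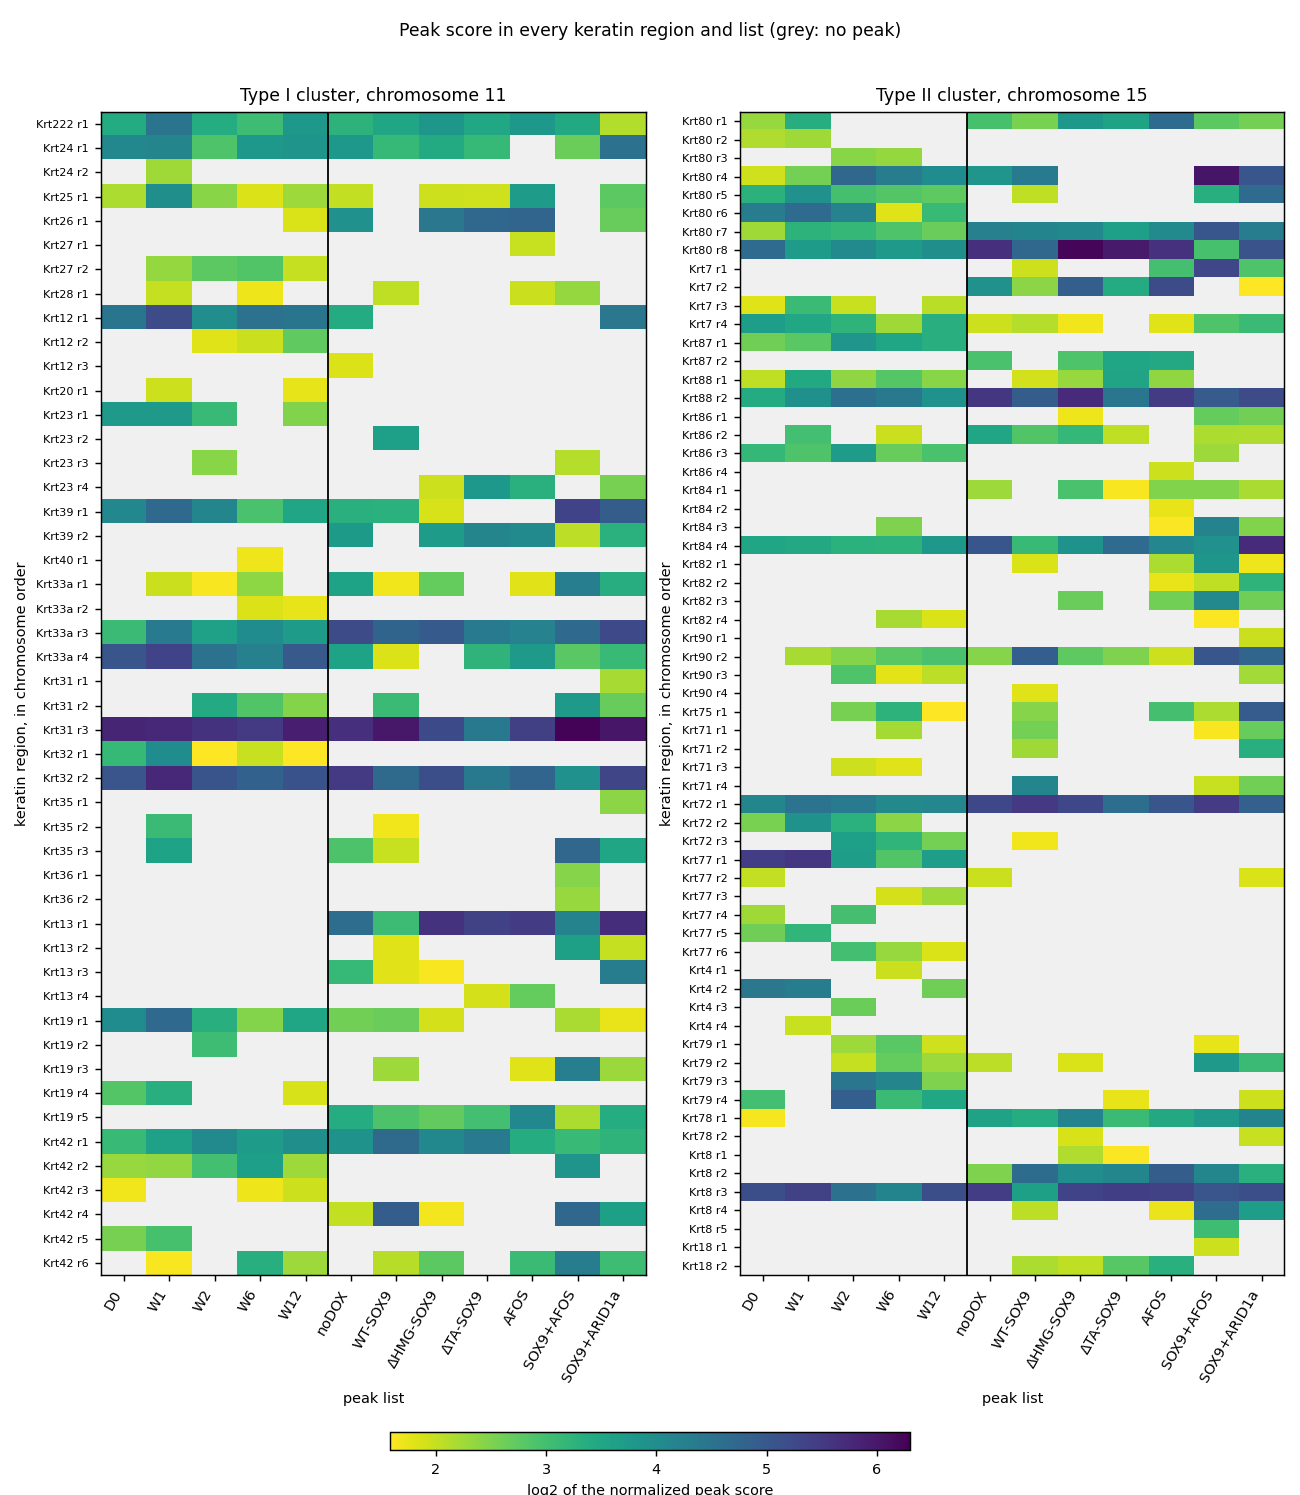
Every keratin region (rows, in chromosome order) in every peak list (columns), coloured by the log2 of the normalized peak score, with grey for no peak and a black line between the 5 skin and the 7 culture lists. Regions such as Krt31 r3, Krt32 r2 and Krt72 r1 are coloured in all 12 columns, whereas 3 of the Krt79 rows have no colour at D0 and W1 and fill from W2, and the Krt13 rows are coloured only in culture.

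A core of 11 regions was present in all 12 lists (9.91% of the keratin regions, against 14.1% of all), and without W1 the count was also 11. They were Krt222 r1, Krt33a r3, Krt31 r3, Krt32 r2, Krt42 r1, Krt80 r7, Krt80 r8, Krt88 r2, Krt84 r4, Krt72 r1 and Krt8 r3. Krt222 r1 covers the start of Smarce1, a SWI/SNF subunit gene next to the type I cluster, and Krt42 r1 the start of Krt17. Several lay at hair keratin genes. Krt31 r3, upstream of the hair shaft gene Krt31, scored 56.3 (D0), 54.6 (W1), 48.6 (W2), 45.1 (W6) and 59.6 (W12), and 20.9 (ΔTA-SOX9) to 76.1 (SOX9+AFOS) in culture. Krt32 r2, in an intron of the hair cuticle gene Krt32, scored 28.5 to 55.1 in skin and 15 to 45.1 in culture. Krt72 r1, beyond the end of the inner root sheath gene Krt72, scored 17.0 to 22.7 in skin and 24.1 to 45.8 in culture. Open chromatin near these hair genes was therefore recorded before DOX in both systems.

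Of the 111 regions, 29 had a peak in skin alone, 37 in culture alone and 45 in both, or 26.1, 33.3 and 40.5%, against 27.9, 29.1 and 43.0% of all regions, all 3 within the keratin intervals. Without W1 the counts were 27, 39 and 43 of 109 regions (24.8, 35.8 and 39.4%, against 26.0, 30.6 and 43.4%). The 35 regions around the 9 keratins left out divided as 6, 4 and 25, and without W1 as 5, 5 and 24. All 4 regions of Krt13, a keratin of internal stratified epithelia, were open in culture alone, with Krt13 r1 at 24.6 in noDOX, 8.42 in WT-SOX9, 48.5 in ΔHMG-SOX9, 41.3 in ΔTA-SOX9, 44.0 in AFOS, 18.3 in SOX9+AFOS and 51.3 in SOX9+ARID1a. WT-SOX9 was the lowest of the 7. The 4 regions of Krt4, which pairs with Krt13, were open in skin alone.

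Over time in skin, the number of keratin regions with a peak was 41 (D0), 47 (W1), 49 (W2), 54 (W6) and 50 (W12), or 36.9, 42.3, 44.1, 48.6 and 45.0%. Over all regions the shares were 40.5, 41.6, 44.1, 53.2 and 50.5%, so the keratin share was below that of all regions at D0, W6 and W12, and its interval included that of all regions at each of the 5 times. With lists cut to equal length the counts were 41, 47, 44, 38 and 37, and at a score of at least 5 they were 29, 39, 42, 37 and 32, and W6 was then not the highest. The type I cluster held 17, 24, 20, 22 and 23 of its 48 regions, and the type II cluster 24, 23, 29, 32 and 27 of its 63. Of the 74 keratin regions open at any time in skin, 27 (36.5%, interval 26.4 to 47.9%) were open at all 5 times, against 38.2% of all regions. Without W1 they were 28 (40.0%, against 43.5%).

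**Figure D2:**
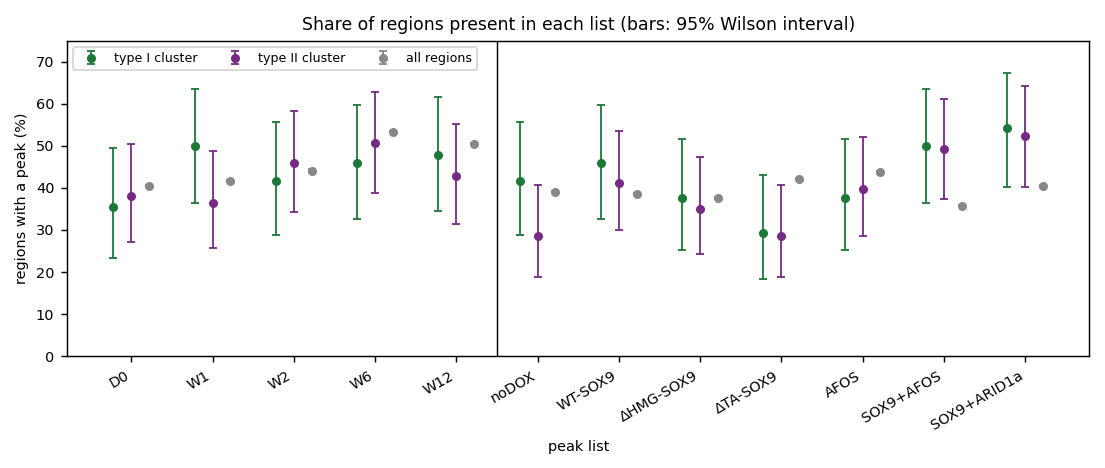
Share of type I (green) and type II (purple) keratin regions and of all 134385 regions (grey) with a peak in each list, with 95% Wilson intervals. The intervals include the grey point except for both clusters in SOX9+AFOS (49.2 and 50% against 35.7%) and for type II in ΔTA-SOX9 (28.6% against 42.1%).

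From D0 to the list labelled W1, 11 of 70 absent keratin regions were gained (15.7%, interval 9.01 to 26.0%), against a background of 10.5%, and 5 of 41 were lost (12.2%, 5.32 to 25.5%, background 12.7%). At a score of at least 5, 1 region was lost (3.45%, against 12.6% of all), and with gene bodies alone the lost share was 15% and so above that of all. The type I cluster gave 8 of the 11 gains. These were 8 of its 31 absent regions (25.8%, 13.7 to 43.2%), against 3 of 39 in type II (7.69%, 2.65 to 20.3%). The 2 highest gains lay between the hair shaft genes Krt35 and Krt36. They were Krt35 r3 (11.8) and Krt35 r2 (8.47), both upstream of Krt35 and both absent at D0, W2, W6 and W12. Krt86 r2, just upstream of the hair shaft gene Krt86, was next at 7.96. None of these 3 regions had a peak at W2. The highest losses were Krt79 r4 (8.01 at D0), Krt77 r4 (4.80) and Krt77 r2 (4.05). Among the 36 keratin regions present in both lists, 29 scored higher at W1 than at D0, with a median log2 ratio of W1 over D0 of 0.48, against 0.07 over all 47507 such regions.

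From W1 to W2, 16 of 64 absent keratin regions were gained (25%, 16 to 36.8%, background 21.9%) and 14 of 47 were lost (29.8%, 18.7 to 44.0%, background 24.7%). Taken from D0 straight to W2, without W1, 17 of the absent regions were gained (24.3%) and 9 of those present were lost (22%), against 19.4 and 19.6% of all. The type II cluster gave 12 of the 16 gains from W1 to W2. These were 12 of its 40 absent regions (30%, 18.1 to 45.4%), against 4 of 24 in type I (16.7%, 6.68 to 35.9%). Both intervals included the background. The highest gains were Krt79 r4, Krt79 r3 and Krt72 r3, and the highest losses Krt4 r2 (20.02 at W1), Krt35 r3 (11.8) and Krt80 r1 (10.3). The 33 regions present at both times had a median log2 ratio of W2 over W1 of -0.55, with 9 of the 33 higher at W2, against -0.15 over all regions.

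The strongest gains were around Krt79, a type II keratin of the follicle opening and sebaceous duct. Krt79 r3, whose centre lies at -330 bp from the start, had no peak at D0 or W1 and scores of 21.8 at W2, 17.7 at W6 and 5.63 at W12, with fold enrichments over local background of 7.55, 7.30 and 4.64. It had no peak in any culture list. Krt79 r4, further upstream, scored 8.01 at D0, had no peak at W1, and scored 29.7 at W2, 8.49 at W6 and 11.2 at W12. Both intronic regions of Krt79 had, like Krt79 r3, no peak at D0 or W1 and one at the 3 later times, at lower scores and with the highest at W6: Krt79 r1 was at 4.85, 6.95 and 3.81 and Krt79 r2 was at 4.0, 6.46 and 4.83 at W2, W6 and W12. The Krt79 window held 1 region at D0 and at W1 and 5 at W2.

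Several other follicle keratin regions had no peak at D0 or W1 and one at W2, W6 and W12. Krt72 r3, upstream of Krt72, scored 12.4 at W2, 9.25 at W6 and 5.97 at W12. Krt75 r1, upstream of the companion layer gene Krt75, scored 5.85, 9.48 and 3.01, and Krt90 r3, in an intron of Krt75, scored 7.34, 3.41 and 4.17. Krt31 r2, the intronic region of the hair shaft gene Krt31 printed above, scored 10.6, 7.25 and 5.51. Regions of other keratins were also gained from W1 to W2 at scores between these, namely Krt19 r2 (8.23 at W2), Krt77 r6 (7.98), Krt77 r4 (7.91) and Krt4 r3 (6.22).

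In all, 9 of 111 keratin regions (8.11%, 4.32 to 14.7%) were without a peak at D0 and W1 but with one at W2, W6 and W12, against a background of 5.69%. They were Krt12 r2, Krt31 r2, Krt72 r3, Krt75 r1, Krt77 r6, Krt79 r1, Krt79 r2, Krt79 r3 and Krt90 r3. Of these, 7 were on chromosome 15. Without the list labelled W1 the count was 11 (9.91%, against 6.59% of all). With the lists cut to equal length, the share was 3.88% against 4.14% of all, and at a score of at least 5 it was 4.55% against 5.59%, so under both the order turned. The 35 regions around the keratins left out gave 0, with a Wilson upper bound of 9.89%, and also 0 without W1.

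The reverse course, present at D0 and absent at W2, W6 and W12, was taken by 6 keratin regions (5.41%, 2.5 to 11.3%, background 4.01%, and 9.71% against 6.76% with lists cut to equal length): Krt42 r5, Krt77 r2, Krt77 r5, Krt78 r1, Krt80 r1 and Krt80 r2. Krt77 belongs to the suprabasal epidermis and sweat ducts, and Krt77 r5 covers its start, with scores of 6.06 at D0 and 9.20 at W1. Krt77 r1, beyond the end of Krt77 and also within 5 kb of Krt1, kept a peak but scored 43.7 (D0), 46.9 (W1), 12.6 (W2), 7.27 (W6) and 12.7 (W12). Krt4 r2, in an intron of Krt4, scored 21.5 at D0 and 20.02 at W1, had no peak at W2 or W6, and scored 6.12 at W12. Krt80 r1, beyond the end of Krt80, scored 4.97 and 10.3 at D0 and W1. Krt80 r4, in an intron of the same gene, had the opposite course, with 3.80, 5.92, 26.4, 19.9 and 16.1 from D0 to W12.

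**Figure D3:**
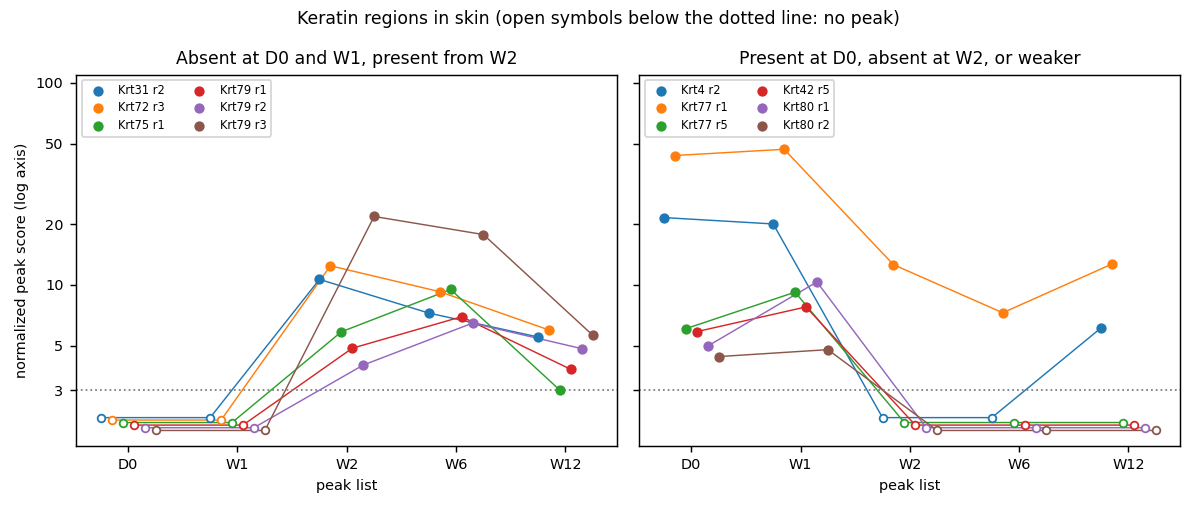
Normalized peak score (log axis) of 12 named keratin regions at D0, W1, W2, W6 and W12. On the left, 6 regions have no peak at D0 and W1 and are led by Krt79 r3 at 21.8 at W2. On the right, Krt4 r2 (21.5 at D0) and 4 others have no peak at W2, and Krt77 r1 goes from 43.7 at D0 to 12.6.

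From W2 to W6, 11 of 62 absent regions were gained (17.7%, 10.2 to 29.0%, background 24.8%) and 6 of 49 lost (12.2%, 5.73 to 24.2%, background 10.9%). W6 is the longest list, and with lists cut to equal length 3 regions were gained (5.08%, against 15.2% of all) and 9 lost (20.5%, against 16.6%), while at a score of at least 5 the shares were 10.9% (against 21.1%) and 23.8% (against 13.1%). The highest gains were Krt42 r6 (10.1), Krt84 r3 (5.65), near a hair shaft gene, and Krt71 r1 (4.64), near an inner root sheath gene. The highest losses were Krt23 r1, which scored 8.67 at W2, Krt19 r2 (8.23) and Krt77 r4 (7.91). Krt23 and Krt19 are keratins of simple epithelia, and Krt19 also marks follicle stem cells. Krt19 r2 had a peak at W2 alone and also lies in the window of Krt15, a keratin left out. Krt23 r1 scored 13.5 at D0, 13.4 at W1 and 5.60 at W12. From W6 to W12, 6 of 57 were gained (10.5%, 4.91 to 21.1%, background 15.4%) and 10 of 54 lost (18.5%, 10.4 to 30.8%, background 18.7%, but 27.0% against 18.8% at a score of at least 5), with the losses led by Krt84 r3 (5.65), Krt72 r2 (5.27) and Krt33a r1 (5.20). The gains were led by Krt4 r2 (6.12), Krt23 r1 (5.60) and Krt7 r3 (4.20). From D0 to W6, 24 of 70 were gained (34.3%, 24.2 to 46.0%, background 34.3%, but 21% against 23.6% in lists of equal length) and 11 of 41 lost (26.8%, 15.7 to 41.9%, background 19%). The top gains were Krt79 r3, Krt42 r6 and Krt75 r1, and the top losses Krt4 r2, Krt23 r1 and, at 7.19, Krt19 r4.

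Within the central 200 bp, the SOX match was not found in keratin regions gained in skin. Of the 16 regions gained from W1 to W2, 0 held it, against 10.4% of all regions gained in that interval, and of the 24 gained from D0 to W6, 0 held it, against 9.22%. From D0 straight to W2, without W1, 0 of 17 held it, against 10.3%. Over the full regions, Krt33a r1, gained from D0 to W1 and from D0 to W6, and Krt26 r1, gained from W6 to W12, held a match. The counts over full regions were 1 of 11 from D0 to W1 (9.09% against 8.71% of all), 0 of 16 from W1 to W2 (against 21.9%), 0 of 11 from W2 to W6 (against 14.5%), 1 of 6 from W6 to W12 (16.7% against 11.2%) and 1 of 24 from D0 to W6 (4.17% against 19%). A count of 0 says only that these letters are not in these windows.

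**Figure D4:**
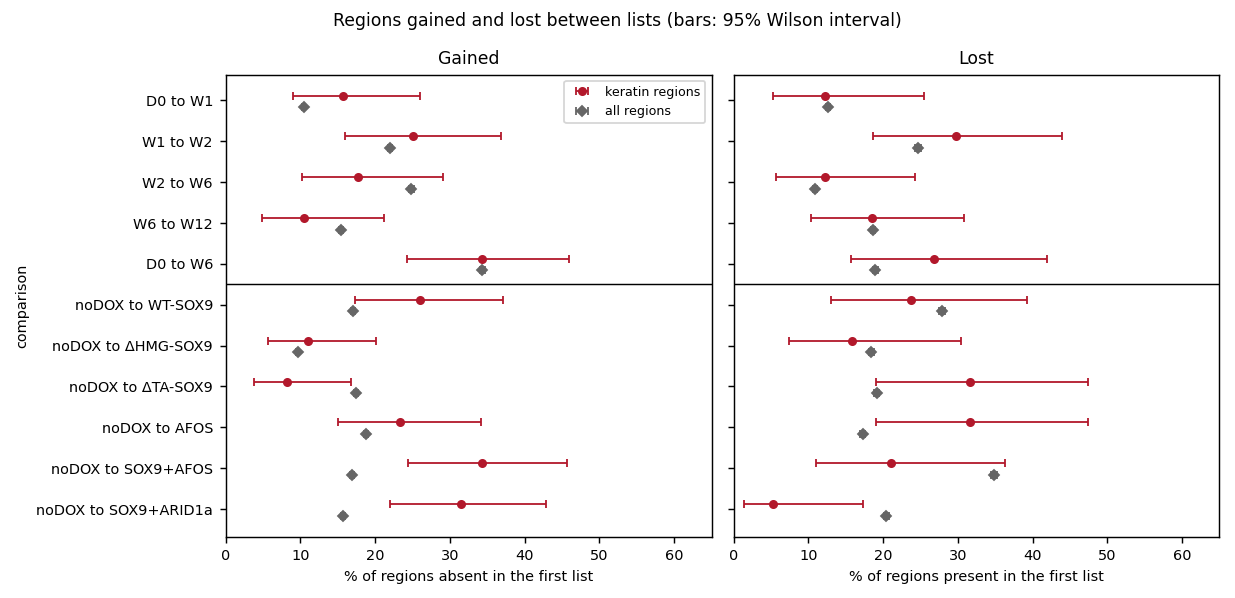
Keratin regions (red circles) and all regions (grey diamonds) gained (left, as a percentage of those absent in the first list) or lost (right, of those present) in 5 skin and 6 culture comparisons, with 95% Wilson intervals. Skin values lie around the grey diamonds, whereas SOX9+AFOS and SOX9+ARID1a lie to their right among gains (34.2 and 31.5%) with ΔTA-SOX9 to their left (8.22% against 17.5%), and among losses SOX9+ARID1a lies to their left (5.26%) and AFOS to their right (31.6% against 17.3%).

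In culture the number of keratin regions with a peak was 38 in noDOX, 48 in WT-SOX9, 40 in ΔHMG-SOX9, 32 in ΔTA-SOX9, 43 in AFOS, 55 in SOX9+AFOS and 59 in SOX9+ARID1a. As shares these were 34.2, 43.2, 36.0, 28.8, 38.7, 49.5 and 53.2%, beside 38.9, 38.5, 37.6, 42.1, 43.7, 35.7 and 40.5% of all regions. SOX9+ARID1a and SOX9+AFOS held the most keratin regions, also under each alternative, although SOX9+AFOS was the shortest of the 12 lists. WT-SOX9 came next here, but not at a score of at least 5 (29, against 31 in noDOX and in AFOS) or with the greater part of a region covered (37, against 39 in AFOS). The 6 comparisons with noDOX share that list. Of the 82 keratin regions open in any culture list, 17 (20.7%, 13.4 to 30.7%) were open in all 7, against 25.3% of all.

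In WT-SOX9, 19 of 73 absent keratin regions were gained (26.0%, 17.3 to 37.1%, background 17.1%) and 9 of 38 lost (23.7%, 13.0 to 39.2%, background 27.9%). Counting only peaks with a score of at least 5, the gained share was 10.5%, against 16.1% of all regions, so the order of the 2 shares turned. The highest gain was Krt71 r4, in an intron of the inner root sheath gene Krt71, at 17.6. It scored 3.96 in SOX9+AFOS and 5.98 in SOX9+ARID1a, and had no peak in noDOX, ΔHMG-SOX9, ΔTA-SOX9, AFOS or any skin list. Krt23 r2 (12.5) and Krt31 r2 (8.45) followed. The region over the Krt42 start, Krt42 r4, was present in noDOX but at 4.04, against 30.1 in WT-SOX9, 3.18 in ΔHMG-SOX9, 26.3 in SOX9+AFOS and 12.4 in SOX9+ARID1a, and it was absent in ΔTA-SOX9 and AFOS. It holds 1 of the SOX matches printed above. The highest losses were Krt26 r1 (15.1 in noDOX), between inner root sheath genes, Krt39 r2 (13.3), in a hair shaft gene, and Krt12 r1 (10.5), near a gene known from the cornea.

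In ΔHMG-SOX9, 8 of 73 were gained (11%, 5.66 to 20.2%, background 9.62%, but 5.26% against 9.56% at a score of at least 5) and 6 of 38 lost (15.8%, 7.44 to 30.4%, background 18.4%, but 22.6% against 17.5% at that score). Its highest gains were Krt42 r6 (6.79), Krt82 r3 (6.34) and Krt88 r1 (4.98), and its highest losses Krt80 r4 (14.3 in noDOX), Krt33a r4 (11.8) and Krt12 r1. In ΔTA-SOX9, 6 of 73 were gained (8.22%, 3.82 to 16.8%, background 17.5%) and 12 of 38 lost (31.6%, 19.1 to 47.5%, background 19.2%). Gains were led by Krt23 r4 (13.8), Krt88 r1 (11.6) and Krt18 r2 (7.0), and losses by Krt80 r4, Krt33a r1 (11.8 in noDOX) and Krt12 r1. Krt80 r4 had no peak in ΔHMG-SOX9, ΔTA-SOX9 or AFOS, and scored 14.3 in noDOX, 20.2 in WT-SOX9, 65.7 in SOX9+AFOS and 33.0 in SOX9+ARID1a.

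In the list labelled AFOS, 17 of 73 were gained (23.3%, 15.1 to 34.2%, background 18.8%, but 13.5% against 18.8% with gene bodies alone) and 12 of 38 lost (31.6%, 19.1 to 47.5%, background 17.3%). Krt18 r2 (9.87), Krt23 r4 (9.85) and Krt42 r6 (8.5) led the gains, and Krt80 r4, Krt24 r1 (13.7 in noDOX) and Krt86 r2 (11.4 in noDOX) the losses. In SOX9+AFOS, 25 of 73 were gained (34.2%, 24.4 to 45.7%, background 16.9%) and 8 of 38 lost (21.1%, 11.1 to 36.3%, background 34.8%). Its gains were led by Krt7 r1 (39.3), around the start of Krt7, Krt8 r4 (24.3) and Krt42 r6 (19.6), and its losses by Krt26 r1, Krt7 r2 (15.1 in noDOX) and Krt12 r1. In SOX9+ARID1a, 23 of 73 were gained (31.5%, 22 to 42.9%, background 15.6%) and 2 of 38 lost (5.26%, 1.46 to 17.3%, background 20.5%). At a score of at least 5 the lost share was 16.1%, against 20.8% of all. With peaks required to cover the greater part of a region it was 35.5% against 39.7% of all. Its gains were led by Krt75 r1 (30.3), Krt80 r5 (25.1) and Krt8 r4 (12.5), and the 2 losses were Krt87 r2 (7.63 in noDOX) and Krt12 r3 (3.55). AFOS, SOX9+AFOS and SOX9+ARID1a are the lists with tagged peak names, and the part of this in their values was not tested.

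Krt12 r1 separated the arms. It scored 22.1, 37.1, 16, 23.1 and 22.2 from D0 to W12 and 10.5 in noDOX, had no peak in WT-SOX9, ΔHMG-SOX9, ΔTA-SOX9, AFOS or SOX9+AFOS, and scored 21.6 in SOX9+ARID1a. Krt39 r1, in an intron of the hair shaft gene Krt39, took another course, with 9.92 in noDOX, 9.71 in WT-SOX9, 3.68 in ΔHMG-SOX9, no peak in ΔTA-SOX9 or AFOS, 40.6 in SOX9+AFOS and 30.0 in SOX9+ARID1a. Here both combined arms stood above the other 5 lists.

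Regions with a peak in SOX9+AFOS, SOX9+ARID1a and WT-SOX9 but no other culture list numbered 5 of 111 (4.5%, 1.94 to 10.1%), against a background of 1.75%. They were Krt13 r2 (3.54 in WT-SOX9, 12.3 in SOX9+AFOS and 3.97 in SOX9+ARID1a), Krt31 r2 (8.45, 13.6 and 6.38), Krt71 r1 (5.92, 3.08 and 6.45), Krt71 r4 and Krt80 r5 (4.09, 10.1 and 25.1). With the list labelled AFOS left aside the count was 10 (9.01%, against 1.95% of all). At a score of at least 5 it was 2 (2.27%, against 1.68%). Krt31 r2 was the only one of these 5 that was also gained by W2 and kept in skin.

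**Figure D5:**
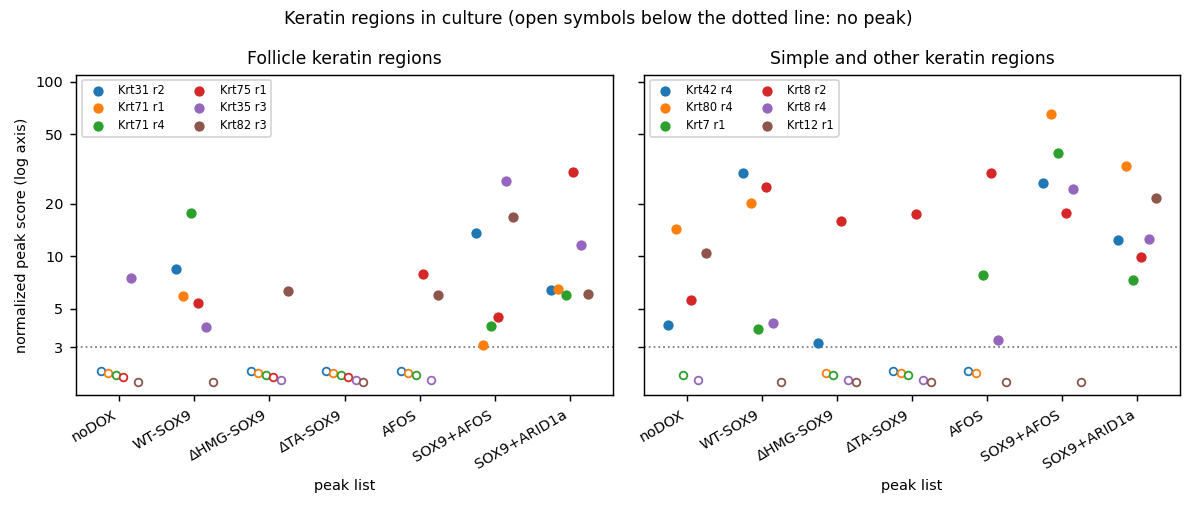
Normalized peak score (log axis) of 12 named keratin regions in noDOX and the 6 DOX arms, with open symbols for no peak. Krt31 r2, Krt71 r1 and Krt71 r4 (left) have a peak only in the 3 arms with full-length SOX9, and Krt80 r4 (right) is highest in SOX9+AFOS at 65.7.

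The regions were also counted by role. A region in the windows of genes of different roles counts in each of them, so the role counts overlap. The type II keratins of the inner root sheath and companion layer (Krt71, Krt72, Krt73 and Krt75) had 12 regions. Of these, 2 (D0), 3 (W1), 7 (W2), 8 (W6) and 5 (W12) were open, and 2 in noDOX, 8 in WT-SOX9, 2 in ΔHMG-SOX9, 2 in ΔTA-SOX9, 3 in AFOS, 5 in SOX9+AFOS and 8 in SOX9+ARID1a. From noDOX, 6 of the 10 absent regions were gained in WT-SOX9, 0 in ΔHMG-SOX9 and 0 in ΔTA-SOX9, where the shares of all absent regions were 17.1, 9.62 and 17.5%, and none of the 2 present was lost in any arm. Of the WT-SOX9 gains, Krt72 r3 (3.21), Krt90 r4 (3.52) and Krt71 r2 (4.77) were below a score of 5. The others were Krt71 r4 (17.6), Krt71 r1 (5.92) and Krt75 r1 (5.42). From D0 to W6, 6 of 10 were gained (34.3% of all) and 0 of 2 lost. Krt90 r2, in a noncoding exon of Krt75, was present in all 7 culture lists, at 5.45 in noDOX, 29.5 in WT-SOX9, 6.79 in ΔHMG-SOX9, 5.67 in ΔTA-SOX9, 3.86 in AFOS, 33.0 in SOX9+AFOS and 27.0 in SOX9+ARID1a. The 3 arms with full-length SOX9 stood above the other 4 lists.

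Their type I partners of the inner root sheath (Krt25, Krt26, Krt27 and Krt28) had 5 regions, of which 1 (D0), 3 (W1), 2 (W2), 3 (W6) and 3 (W12) were open. Krt26 r1 was absent at D0, W1, W2 and W6, had 3.59 at W12 and 15.1 in noDOX, and was absent in WT-SOX9 and SOX9+AFOS but present in ΔHMG-SOX9 (21.4), ΔTA-SOX9 (26.6), AFOS (27.2) and SOX9+ARID1a (6.44). In WT-SOX9, 1 of the 3 absent type I regions was gained and both of the 2 present were lost, where 17.1 and 27.9% of all regions were.

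Hair shaft type I genes (Krt31 to Krt36, Krt39 and Krt40, 9 genes) had 17 regions, of which 6 (D0), 9 (W1), 8 (W2), 10 (W6) and 8 (W12) were open, and 8 in noDOX, 9 in WT-SOX9, 6 in ΔHMG-SOX9, 5 in ΔTA-SOX9, 6 in AFOS, and 11 each in SOX9+AFOS and SOX9+ARID1a. Over all regions the shares were 40.5, 41.6, 44.1, 53.2 and 50.5% from D0 to W12. In the culture lists they were 38.9, 38.5, 37.6, 42.1, 43.7, 35.7 and 40.5% in the order given. Krt31 r3 had the highest score of this role, 76.1 in SOX9+AFOS. Krt35 r3 scored 7.52 in noDOX, 3.94 in WT-SOX9, 26.9 in SOX9+AFOS and 11.6 in SOX9+ARID1a, and had no peak in ΔHMG-SOX9, ΔTA-SOX9 or AFOS. Hair shaft type II genes (Krt81, Krt82, Krt83, Krt84, Krt86 and Krt87, with 1 further gene of this role not analysed here) had 15 regions, with 4, 5, 4, 7 and 5 open from D0 to W12, and 5 in noDOX, 4 in WT-SOX9, 7 in ΔHMG-SOX9, 5 in ΔTA-SOX9, 10 in AFOS, 11 in SOX9+AFOS and 9 in SOX9+ARID1a. From noDOX, AFOS gained 6, SOX9+AFOS 7 and SOX9+ARID1a 5 of the 10 absent regions, against 1 in WT-SOX9, 2 in ΔHMG-SOX9 and 0 in ΔTA-SOX9. Over all regions the shares were 18.8, 16.9, 15.6, 17.1, 9.62 and 17.5% in the same order. Of the AFOS gains, Krt82 r1 (4.46), Krt86 r4 (3.86), Krt82 r2 (3.35), Krt84 r2 (3.35) and Krt84 r3 (3.05) were close to the threshold of 3. The gains of SOX9+AFOS scored 3.05 to 18.3 and those of SOX9+ARID1a 3.27 to 9.42. AFOS, SOX9+AFOS and SOX9+ARID1a are the lists with tagged peak names. Krt82 r1, Krt82 r2 and Krt82 r3, around a hair cuticle gene, had no skin peak. Krt82 r3 scored 6.34 in ΔHMG-SOX9, 6.02 in AFOS, 16.9 in SOX9+AFOS and 6.07 in SOX9+ARID1a. Krt84 r4 was the highest of this role, at 53.3 in SOX9+ARID1a.

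Simple epithelial genes (Krt7, Krt8, Krt18, Krt19, Krt20 and Krt23) had 24 regions, with 7, 8, 8, 4 and 8 open from D0 to W12, and 8 in noDOX, 11 in WT-SOX9, 10 in ΔHMG-SOX9, 8 in ΔTA-SOX9, 11 in AFOS, 11 in SOX9+AFOS and 10 in SOX9+ARID1a. Over all regions the shares were 40.5, 41.6, 44.1, 53.2 and 50.5% from D0 to W12 and 35.7 to 43.7% in culture. W6, the longest list, held the fewest regions of this role. From W2 to W6, 0 of 16 absent regions of this role were gained and 4 of 8 present lost, where 24.8 and 10.9% of all were. Krt19 r1, Krt19 r2 and Krt19 r3 also lie in the window of Krt15. Krt8 r3, upstream of Krt8, was open in all 12 lists, with 36.0, 41.4, 22.9, 17.9 and 35.9 in skin and 12.3 (WT-SOX9) to 43.5 (noDOX) in culture. Krt8 r4, next to it, had a peak in WT-SOX9 (4.14), AFOS (3.31), SOX9+AFOS (24.3) and SOX9+ARID1a (12.5) alone. The remaining 15 genes had 47 regions, with 23, 22, 24, 27 and 26 open in skin and 12 (AFOS) to 23 (SOX9+ARID1a) in culture. Krt80 r8, upstream of Krt80, had the highest of these scores, 75.8 in ΔHMG-SOX9. It scored 50.7 in noDOX, 26.2 in WT-SOX9, 61.9 in ΔTA-SOX9, 49.5 in AFOS, 7.81 in SOX9+AFOS and 34.1 in SOX9+ARID1a, and 13.2 to 25.2 in skin. The 3 arms with full-length SOX9 were below the other 4 culture lists.

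The wider hair programme was read from 2 further lists. The 57 genes of keratin-associated proteins, which bind hair keratins into the shaft, had 25 regions around 18 genes. Of these, 7 to 9 were open in each skin list, where 40.5 to 53.2% of all regions were. In culture 4 (WT-SOX9) to 13 (SOX9+ARID1a) were open, where 38.5 and 40.5% of all were. From noDOX, 7 of 19 absent regions were gained in SOX9+ARID1a (36.8%, 19.1 to 59.0%, against 15.6% of all). In AFOS 6 of 19 were gained (31.6%, 15.4 to 54.0%, against 18.8%), and in WT-SOX9 1 of 19 (5.26%, 0.935 to 24.6%, against 17.1%). Of the 25, 0 opened by W2 and kept a peak through W12, where 5.69% of all regions did (also 0 without W1), and 4 (16%, interval 6.40 to 34.7%) closed by W2 and stayed closed, where 4.01% of all did. Regulators and partners of the hair programme (Lef1, Foxn1, Hoxc13, Dlx3, Msx2, Foxq1, Trps1, Gata3, Vdr and Tchh) had 73 regions, with 36, 41, 41, 51 and 41 open from D0 to W12, and 17 of 37 absent regions gained from D0 to W6 (45.9%, 31.0 to 61.6%, a range that includes the 34.3% of all regions) and 2 of 36 lost (5.56%, 1.54 to 18.1%, against 19% of all). Of the 73, 2 were gained by W2 and kept (2.74%, 0.755 to 9.45%, against 5.69%, and 3 or 4.11% against 6.59% without W1), and 0 closed by W2 and stayed closed through W12, against 4.01% of all. The start of Hoxc13, a direct activator of hair keratin genes, had no peak in skin and scored 32.3 in noDOX, 24.0 in WT-SOX9, 22.6 in ΔTA-SOX9, 12.7 in AFOS, 20.5 in SOX9+AFOS and 9.93 in SOX9+ARID1a, with no peak in ΔHMG-SOX9. The start of Lef1, the matrix factor of WNT signalling, had a peak in no list. Other starts of this list were open in skin. Those of Foxn1, Trps1, Gata3 and Vdr had a peak at all 5 skin times. The Msx2 start scored 53.4 at D0, 59.6 at W1 and 34.0 at W6. In all, 5, 5, 4, 5 and 4 of the 10 starts had a peak from D0 to W12, and 4 to 6 in culture.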

How the data were processed

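ATAC-seq was performed on 24 samples in 12 groups of 2. The authors aligned reads to GRCm38/mm10 with PEPATAC, merged the 2 replicates of a group, called peaks with MACS2 keeping duplicates, and normalized the peak score with a threshold of 3. The submitters' processing notes name Bowtie2 2.2.9, Picard 2.3.0, SAMtools 1.9, MACS2 2.1.1 and deepTools 2.5.4. The deposited score appears to be scaled to a common total per list, which the files do not state. The deposited in vivo lists also hold MACS2 fold enrichment and −log10 q, with lowest −log10 q values of 4.21 (W2) to 14.5 (D0), so lists were not cut at one significance level. A shorter or shallower list loses weak peaks, and an absent peak means only a score below the threshold.

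Peaks were merged with at least 1 bp overlap, and genes came from GENCODE M21 (GRCm38.p6), with starts taken from protein-coding transcripts. A region was gained if absent in the first list and present in the second, and lost in the reverse case. Score of a region was the highest among its peaks. Sequences were read from the RefSeq GRCm38.p6 genome, and 42 regions on other sequences were not scanned. No test was run, since each group is 1 list. The merging and counting were tested on simulated data. Python 3.11.15, pandas 2.3.3, scipy 1.17.1 and pysam 0.24.0 were used. Named regions were the 3 highest gained and lost in each comparison, those over a start, those in all 12 lists and the highest of each role, and others, such as Krt90 r2, Krt39 r1 and Krt77 r1, were chosen after their values were seen. Members, role lists and markers were chosen with earlier results of these data known. Krt74 is annotated as a pseudogene and was not a member. Alternatives were a score of at least 5, lists cut to equal length, the greater part of a region covered, separate unions, a common −log10 q minimum, other gene windows and removal of regions shared with a keratin left out. Comparisons without the lists labelled W1 and AFOS were added after seeing the data.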

Additional observations from a re-analysis of the deposited data

How the results depend on the processing

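No paired analysis was possible because the replicates of each group were merged before peak calling, and for the same reason no replicate could be left out. In all, 47 values were recomputed, giving 229 alternative values, of which 187 stayed within the limit used (the counting interval for shares, a fixed ratio for counts) and 42 went past it. The cause was not tested. Shares over all regions stand in parentheses.

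With the gene body alone, 54 regions were members, ΔHMG-SOX9 lost 5.88% (18.4) and AFOS gained 13.5% (18.8, turned). At a score of at least 5, 3.45% (12.6) were lost from D0 to W1, WT-SOX9 gained 10.5% (16.1, turned) and ΔHMG-SOX9 5.26% (9.56, turned). With lists cut to equal length, gains were 5.08% (15.2) from W2 to W6, 21% (23.6) from D0 to W6 and 13.8% (14.1, turned) in AFOS, and 3.88% (4.14, turned) were gained by W2 and kept. With the greater part of a region covered, losses were 47.7% (40.0) from W1 to W2, 35.5% (32.3, turned) in ΔHMG-SOX9 and 35.5% (39.7) in SOX9+ARID1a. With regions merged within skin or culture lists separately, which leaves fewer absent regions, gains were 32.4% (20.7) from D0 to W1, 60.7% (43.4) from W1 to W2, 44.0% (52.0) from W2 to W6, 28.6% (40.9) from W6 to W12, 70.6% (66.9, turned) from D0 to W6, 43.2% (31.4) in WT-SOX9, 38.6% (34.6) in AFOS, 56.8% (31.3) in SOX9+AFOS and 52.3% (28.8) in SOX9+ARID1a. With a common −log10 q minimum of 14.48, gains were 35.3% (18.2) from D0 to W1, 30.0% (31.3) from W2 to W6, 42.9% (50.4) from W6 to W12 and 47.1% (48.0) from D0 to W6, losses 45.2% (39.9) from W1 to W2, 25% (9.72) from W2 to W6, 10% (8.07, turned) from W6 to W12 and 46.3% (36.8) from D0 to W6, and 17.2% (14.6) closed by W2 and stayed closed. Over full regions, matches were found in 15.3% (15.3) for SOX, 30.6% (33.1) for AP1, 28.8% (27.9) for GATA, 42.3% (39.3) for RUNX and 17.1% (20.3) for TCF/LEF. With starts within 500 bp of a peak, 3 keratin genes each had one at W2, W6 and W12, 4 in noDOX and 7 in SOX9+ARID1a, and at a score of at least 5, 2 in ΔHMG-SOX9.

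The keratin shares gained and lost in ΔTA-SOX9, SOX9+AFOS and SOX9+ARID1a, and lost in AFOS and WT-SOX9, stayed on the same side of all regions in all 7 alternatives. Gains did so in 6 of 7 for WT-SOX9 and in 5 of 7 for ΔHMG-SOX9 and AFOS, and losses in 4 of 7 for ΔHMG-SOX9, where they turned to 22.6% (17.5) at a score of at least 5 and 23.7% (17.1) with equal lists. In skin, losses stayed on their side in 6 of 8 from D0 to W1 and 3 of 8 from W6 to W12, gains in 5 of 8 from D0 to W6, the class gained by W2 and kept in 7 of 9 and that lost by W2 in 7 of 8, and the remaining skin gains and losses in 8 of 8. Depth is unknown, so how far peaks near the score of 3 come and go with sampling could not be measured.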
